A study of Nothobranchius furzeri with 16 samples.

Results

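The nuclear genes of the mitochondrial respiratory chain were followed by complex in killifish brains after a proteasome inhibitor. The members were the rows of the TPM table whose symbol begins with NDUFA, NDUFB, NDUFC, NDUFS, NDUFV, UQCR or ATP5, or with COX and a digit of 4 to 8, or is that of an SDH subunit or of CYC1. The rule found 77 of the 26739 rows, and all 77 reached at least 1 TPM in at least 8 fish. By symbol, 33 belonged to complex I, 3 to complex II, 9 to complex III, 12 to complex IV and 11 to complex V, which makes 68 subunit rows. The other 9 carried the prefix without being subunits: the complex I assembly factors NDUFAF1 to NDUFAF7, and ATP5S and ATP5SL. No row matched SDHB, the iron-sulfur subunit of complex II, ATP5A1, the alpha subunit of ATP synthase, or COX7A1, the muscle isoform of a complex IV subunit in mammals, so these are not analysed here.

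The respiratory chain sits in the inner mitochondrial membrane. Complex I takes electrons from NADH and complex II takes them from succinate, ubiquinone carries them to complex III, and cytochrome c carries them on to complex IV, which reduces oxygen. Complexes I, III and IV pump protons, and complex V, the ATP synthase, uses the return of the protons to make ATP. Complexes I, III, IV and V combine a few core proteins made from mitochondrial DNA with many made from nuclear genes, while complex II is wholly nuclear, and neurons draw most of their ATP from this chain.

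Each sample was the brain of 1 adult Nothobranchius furzeri, the turquoise killifish of African seasonal ponds, aged 12 to 14 weeks post hatch. In the BORT group, 8 fish were injected into the body cavity with bortezomib, a proteasome inhibitor, at 500 µM, and in the DMSO group 8 fish received the vehicle, 1% DMSO in salt solution, each at 10 µl per g of body weight. Both groups had 5 injections under anaesthesia on days 0, 6, 12, 18 and 24 of a 4-week period, came from 1 hatch and held both sexes, with the sex of each fish not given in the sources used here. Each brain was sonicated and spun at 3000 xg, and RNA was taken from 150 µl of the supernatant, so any RNA lost with the pellet is outside the measurement.

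TPM is a transcript abundance per length, scaled to a total of 1000000 in each fish. The depth behind it is unknown. Gene models above 0 TPM numbered 23437 to 23944 in BORT fish and 23560 to 23909 in DMSO fish, and the correlation between any pair of fish was 0.928 to 0.981. All 15 rows of the 20S proteasome core, which holds the site that bortezomib blocks, passed the test and were higher in BORT fish, with a median log2 fold change of 0.71. Transcripts of pituitary hormones summed to 3681 to 4203 TPM in BORT fish 6 and 7 and 2132 to 6048 TPM in DMSO fish 5 and 6, against 11.4 to 19.9 TPM in the other BORT fish and 9.69 to 21.1 TPM in the other DMSO fish. These 4 fish are called pituitary-bearing here. The members past the threshold and the ratios of copies that differed are given with and without them.

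Of the 77 members, 8 rose in BORT fish and none fell, at an adjusted p under 0.05 over the 18529 genes tested. Over all genes tested, 3.61% were called higher and 1.25% lower. The 8 were NDUFV2, NDUFA10 and NDUFS4 of complex I, UQCRFS1 (1 OF 2) and UQCRQ of complex III, COX6B1 of complex IV, and ATP5H and ATP5O of complex V, so 3 of 33, 0 of 3, 2 of 9, 1 of 12 and 2 of 11 subunit rows were called in complexes I to V. At an unadjusted p under 0.05, 24 members (31.2%) were higher and 2 (2.6%) lower, beside 14.2% and 6.94% of all genes tested. In 3 members, COX6B1, ATP5H and NDUFS4, the lowest BORT fish exceeded the highest DMSO fish, a pattern shown by 1.08% of all genes tested, and no member had the opposite pattern, shown by 0.221% of all genes. Members were more abundant than all genes tested, with a median level of 205.3 TPM beside 13.61 TPM. Fish of a group also differed less in them, with a median SD of 0.112 beside 0.257 on the log2 scale. A shift of a given size passes more readily where that SD is smaller. Whether these shares exceed those of genes of like level and SD was not tested. In whole brains, a change in the share of cells of a type and a change of RNA per cell cannot be told apart.

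The shifts were small in every complex. The median log2 fold change was 0.10 in complex I, 0.03 in complex II, 0.09 in complex III, 0.08 in complex IV and 0.07 in complex V, and it was -0.05 in the 9 assembly or other members. Over all 77 members it was 0.08, beside 0.03 over all genes tested. Of the 77, 56 (72.7%) were above 0, beside 56.6% of all genes tested. Under quantile normalization the members' median was -0.0086 and that of all genes tested -0.014. The members' and all-gene medians were 0.067 and 0.069 without BORT fish 8, and 0.063 and 0.056 with sample weights. They were 0.047 and 0.0092 under median-of-ratios scaling and 0.033 and -0.0032 under upper-quartile scaling. Without the 4 pituitary-bearing fish they were 0.046 and 0.02. The spread between fish of a group was also small, with a median SD of 0.11 on the log2 scale for members and 0.26 for all genes. The 95% interval of 47 of the 77 members lay within a 1.2-fold change in either direction.

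Scaling moved these calls. The 669 higher and 232 lower calls over all genes became 537 and 388 under median-of-ratios scaling, 502 and 455 under upper-quartile scaling and 549 and 563 under quantile normalization. Of the 77 members, 2 were then called higher and 0 lower under median-of-ratios and under upper-quartile scaling. Beside them, 2.9% and 2.71% of all genes tested were called higher, so the members no longer stood above the share of all genes. Under quantile normalization 3 were called higher, COX6B1, ATP5H and COX4I1, and 2 lower, COX5A (1 OF 2) and NDUFA4, beside 2.96% of all genes called higher. COX6B1 and ATP5H passed in every one of the 28 alternatives run, and the other 6 did not.

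**Figure D1:**
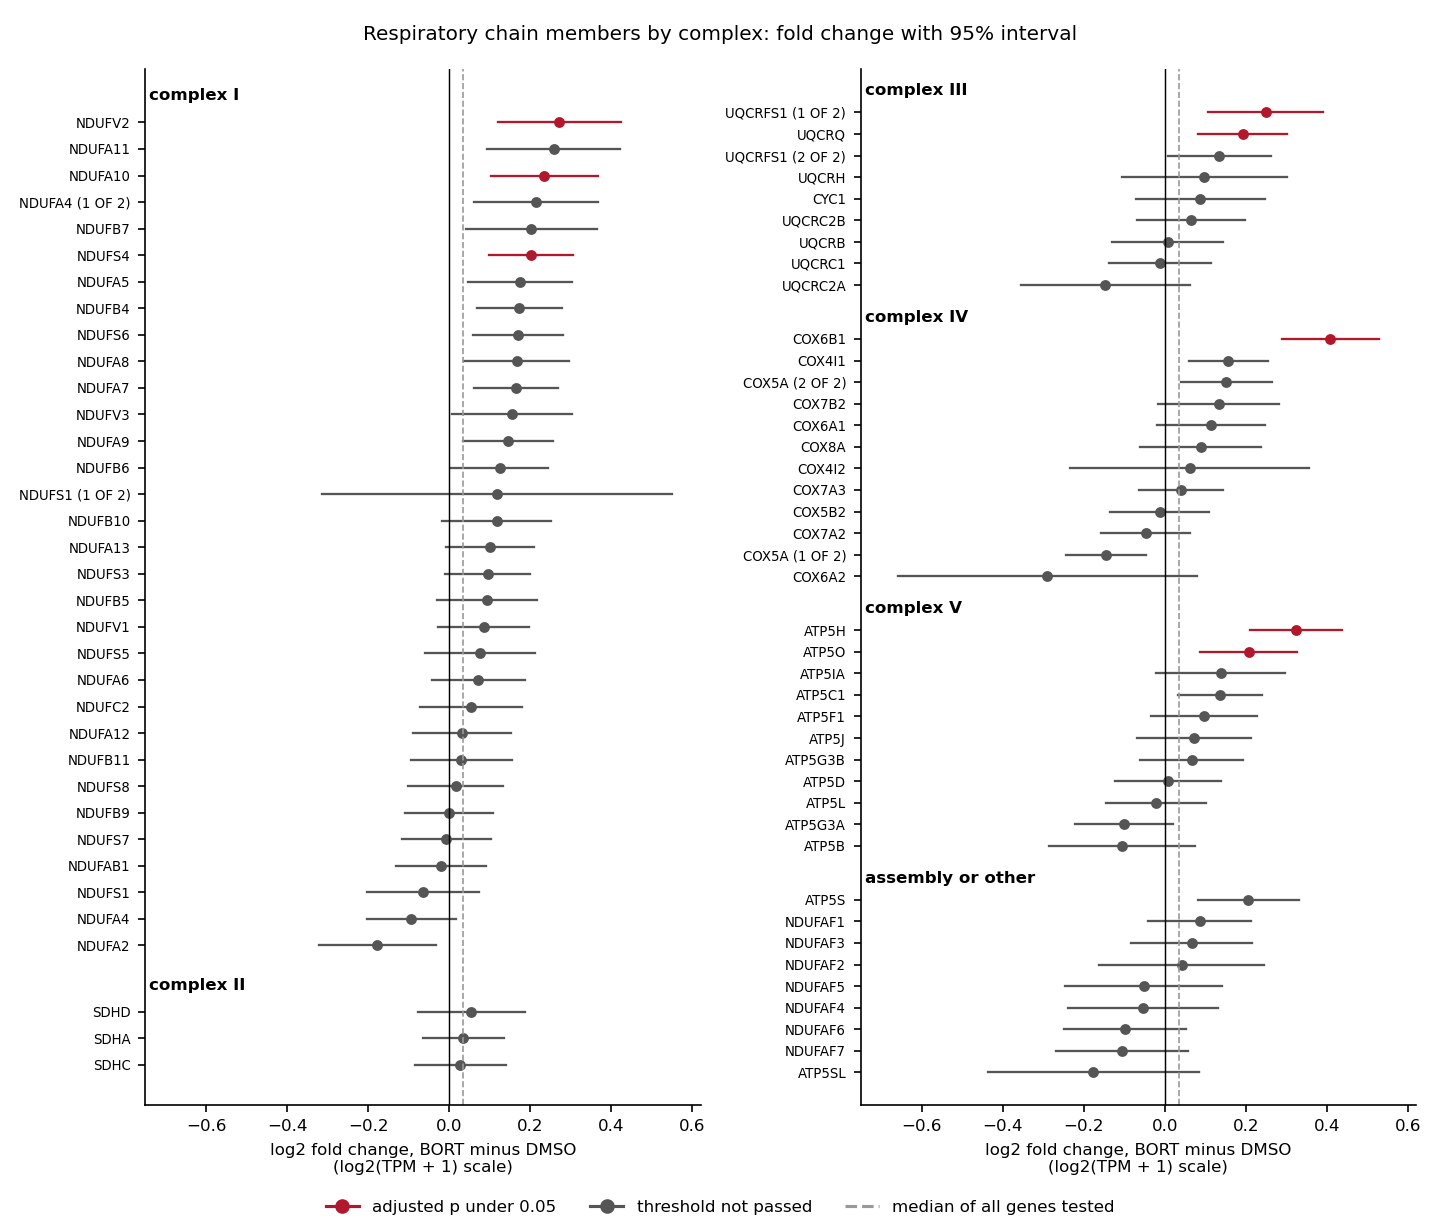
Log2 fold change of the 77 members except 1 that is not shown, BORT minus DMSO, with its 95% interval, by complex; red marks the 8 members past the adjusted threshold, and the dashed line is the median of all genes tested. Of the 68 subunit rows, 23 have an interval wholly above 0 and 2 wholly below, and the rest reach across 0. COX6B1 and ATP5H lie farthest right, and the 3 complex II rows lie close to 0.

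Complex I, the NADH dehydrogenase, is an L with a matrix arm that holds the flavin and iron-sulfur clusters and a membrane arm that pumps protons. NDUFS4 is an accessory subunit of the NADH-oxidising tip, known in mice for the Leigh-like brain disease that follows its loss. Its transcript was 84.3, 88.4 and 96.1 TPM (lowest, median, highest) in BORT fish and 72.0, 78.7 and 83.9 TPM in DMSO fish. The groups did not overlap, though the lowest BORT fish and the highest DMSO fish lay close together. The log2 fold change was 0.20 ± 0.05 (SE; adjusted p = 0.0258, limma). It was 0.20 without the 4 pituitary-bearing fish (adjusted p = 0.119, limma) and 0.20 without BORT fish 6 (adjusted p = 0.0522, limma).

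NDUFV2, which carries an iron-sulfur cluster at the same tip, ran at 163, 179 and 197 TPM in BORT fish and 112.5, 151 and 166 TPM in DMSO fish. All but 1 BORT fish lay above the highest DMSO fish, and 1 DMSO fish lay far below the rest. The log2 fold change was 0.27 ± 0.07 (adjusted p = 0.0401, limma). NDUFA10, an accessory subunit of the membrane arm, ran at 156, 170.2 and 193 TPM in BORT fish and 129, 148 and 161 TPM in DMSO fish, with an overlap of a few fish. Its log2 fold change was 0.23 ± 0.06 (adjusted p = 0.0405, limma). Without the 4 pituitary-bearing fish the 2 values were 0.26 for NDUFV2 (adjusted p = 0.162, limma) and 0.20 for NDUFA10 (adjusted p = 0.163, limma).

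NDUFA11, a small membrane subunit, ran at 284, 306 and 349 TPM in BORT fish and 194, 275 and 292 TPM in DMSO fish, with a log2 fold change of 0.26 ± 0.08 that missed the threshold (adjusted p = 0.0659, limma). NDUFA9, an accessory subunit at the joint of the arms, had 0.14 ± 0.05 (adjusted p = 0.123, limma). Besides NDUFV2, which belongs to the catalytic core and was called, the core rows named here gave small values of both signs. NDUFV1, which binds NADH and FMN, had a log2 fold change of 0.08, with a standard error of 0.05 (adjusted p = 0.373, limma). For the large iron-sulfur subunit, the row named NDUFS1 had -0.06 ± 0.07 (adjusted p = 0.596, limma). The row NDUFS1 (1 OF 2), which varied more between fish, had 0.12 ± 0.20 (adjusted p = 0.771, limma). Outside the core, NDUFAB1, the mitochondrial acyl carrier protein that is also a complex I subunit, had -0.02 ± 0.05 (adjusted p = 0.853, limma).

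Complex I rows were also grouped by lists drawn up for the modules in which it is built. Of the NADH module 2 of 9 rows were called (median log2 fold change 0.12), and of the ubiquinone module 0 of 5 (0.02). Of the proximal membrane module 1 of 9 was called (0.14) and of the distal membrane module 0 of 8 (0.10), all called rows being higher. Among all genes tested 3.61% were called higher and 1.25% lower, with a median of 0.03. The called rows, NDUFS4, NDUFV2 and NDUFA10, all lost their calls under each of the 3 other scalings and without the 4 pituitary-bearing fish. The proximal list held NDUFA6, NDUFA7 and NDUFA9, which other assignments place on the matrix arm, so these counts only approximate the modules. The NADH module also held NDUFA2, a thioredoxin-fold accessory subunit, which had the most negative value of the complex at -0.18 ± 0.07 (adjusted p = 0.144, limma). NDUFA2 is named after its values were seen. No test compared the modules.

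None of the 3 complex II rows passed. SDHA, the flavoprotein that oxidises succinate, ran at 147, 159.9 and 174 TPM in BORT fish and 146, 157 and 166 TPM in DMSO fish, and its log2 fold change was 0.03 (95% interval -0.07 to 0.13). The membrane anchors SDHC and SDHD had log2 fold changes of 0.03 (interval -0.08 to 0.14) and 0.05 (interval -0.08 to 0.19). All 3 intervals lay within a 1.2-fold change in either direction.

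Complex III passes electrons through the Rieske iron-sulfur protein, which the table holds as UQCRFS1 on 2 rows. The minor row, UQCRFS1 (1 OF 2), ran at 47.2, 57.05 and 58.9 TPM in BORT fish and 40, 46.05 and 50.7 TPM in DMSO fish. Its groups overlapped in a few fish, and the log2 fold change was 0.25 ± 0.07 (adjusted p = 0.0421, limma). The major row, UQCRFS1 (2 OF 2), ran at 299.9, 323 and 363 TPM in BORT fish and 261, 302.5 and 326 TPM in DMSO fish, with a log2 fold change of 0.13 ± 0.06 that did not pass (adjusted p = 0.205, limma). UQCRQ, a small subunit near the ubiquinone sites, ran at 153, 166 and 178 TPM in BORT fish and 129, 142 and 160.4 TPM in DMSO fish. Only its lowest BORT fish fell within the DMSO range, and the log2 fold change was 0.19 ± 0.05 (adjusted p = 0.0433, limma). Without the 4 pituitary-bearing fish the log2 fold changes were 0.24 for UQCRFS1 (1 OF 2) (adjusted p = 0.122, limma) and 0.19 for UQCRQ (adjusted p = 0.148, limma).

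The rest of complex III did not pass. CYC1, the cytochrome c1 that hands electrons to cytochrome c, had a log2 fold change of 0.09, with a standard error of 0.08 (adjusted p = 0.525, limma). The core protein UQCRC1 had -0.01 ± 0.06 (adjusted p = 0.927, limma). UQCRB, the most abundant row of the complex at 801.7 TPM over 16 fish, had 0.01 ± 0.06 (adjusted p = 0.959, limma), and UQCRH, the hinge protein between cytochrome c1 and cytochrome c, had 0.10 ± 0.10 (adjusted p = 0.586, limma).

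COX6B1 showed the largest change of all members. It encodes a subunit of complex IV, cytochrome c oxidase, on the side facing the intermembrane space, where the monomers of the dimer meet. It ran at 610.2, 715 and 760.1 TPM in BORT fish and 485, 536 and 591 TPM in DMSO fish. The lowest BORT fish stood above the highest DMSO fish, and the log2 fold change was 0.41 ± 0.06 (1.33-fold, adjusted p = 0.000408, limma). Without the 4 pituitary-bearing fish it was 0.41 (adjusted p = 0.0161, limma). Measured against the mean log2 level of the other 11 complex IV rows of the same fish, COX6B1 was 1.28 to 1.63 in BORT fish and 0.86 to 1.18 in DMSO fish on the log2 scale, again without overlap. Taken within a fish, such a difference hardly depends on how fish are scaled to each other.

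None of the other 11 complex IV rows passed, and their values had both signs. COX4I1, the ubiquitous form of subunit IV and the most abundant row of the complex, ran at 1314, 1368 and 1560 TPM in BORT fish and 1142, 1236 and 1321 TPM in DMSO fish. Its groups overlapped by little, and the log2 fold change of 0.16 ± 0.05 missed the threshold (adjusted p = 0.0628, limma). COX8A and COX6A1, next in level, had 0.09 ± 0.07 and 0.11 ± 0.06 (adjusted p = 0.494 and 0.307, limma). COX7A2 had -0.05 ± 0.05 (adjusted p = 0.631, limma). COX4I2, a form induced by low oxygen in mammals, had 0.06 ± 0.14 (adjusted p = 0.830, limma), and COX6A2, the heart and muscle form in mammals, averaged 4.85 ± 1.73 TPM in BORT fish and 6.05 ± 1.53 TPM in DMSO fish (SD, n = 8 each), with -0.29 ± 0.17 (adjusted p = 0.352, limma).

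ATP5H was the second member that kept its call throughout, though only just under upper-quartile scaling (adjusted p = 0.0498, limma). It encodes subunit d of the peripheral stalk, the stator that holds the catalytic head of ATP synthase still while the rotor turns. It ran at 370.1, 416 and 460.4 TPM in BORT fish and 298, 334 and 369.5 TPM in DMSO fish. The groups only just parted, with the lowest BORT fish next to the highest DMSO fish, and the log2 fold change was 0.32 ± 0.05 (1.25-fold, adjusted p = 0.00233, limma). Without the 4 pituitary-bearing fish it was 0.31 (adjusted p = 0.0407, limma). Against the mean of the other 10 complex V rows, ATP5H differed by 0.27 on the log2 scale and its groups again touched without overlap.

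ATP5O, the oligomycin-sensitivity protein that joins the stalk to the head, ran at 524, 569.9 and 689 TPM in BORT fish and 442, 509 and 541 TPM in DMSO fish. All but 1 BORT fish lay above the highest DMSO fish, and the log2 fold change was 0.21 ± 0.06 (adjusted p = 0.0449, limma). It was 0.21 without the 4 pituitary-bearing fish (adjusted p = 0.157, limma). The remaining peripheral stalk rows, ATP5F1 (subunit b) and ATP5J (a coupling factor), had 0.10 ± 0.06 (adjusted p = 0.376, limma) and 0.07 ± 0.07 (adjusted p = 0.557, limma), and are named after their values were seen. None of the 3 rows of the catalytic head and central stalk passed, and ATP5B, the catalytic beta subunit, had -0.10 ± 0.09 (adjusted p = 0.501, limma). ATP5L, subunit g of the membrane part, had -0.02 ± 0.06 (adjusted p = 0.861, limma).

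**Figure D2:**
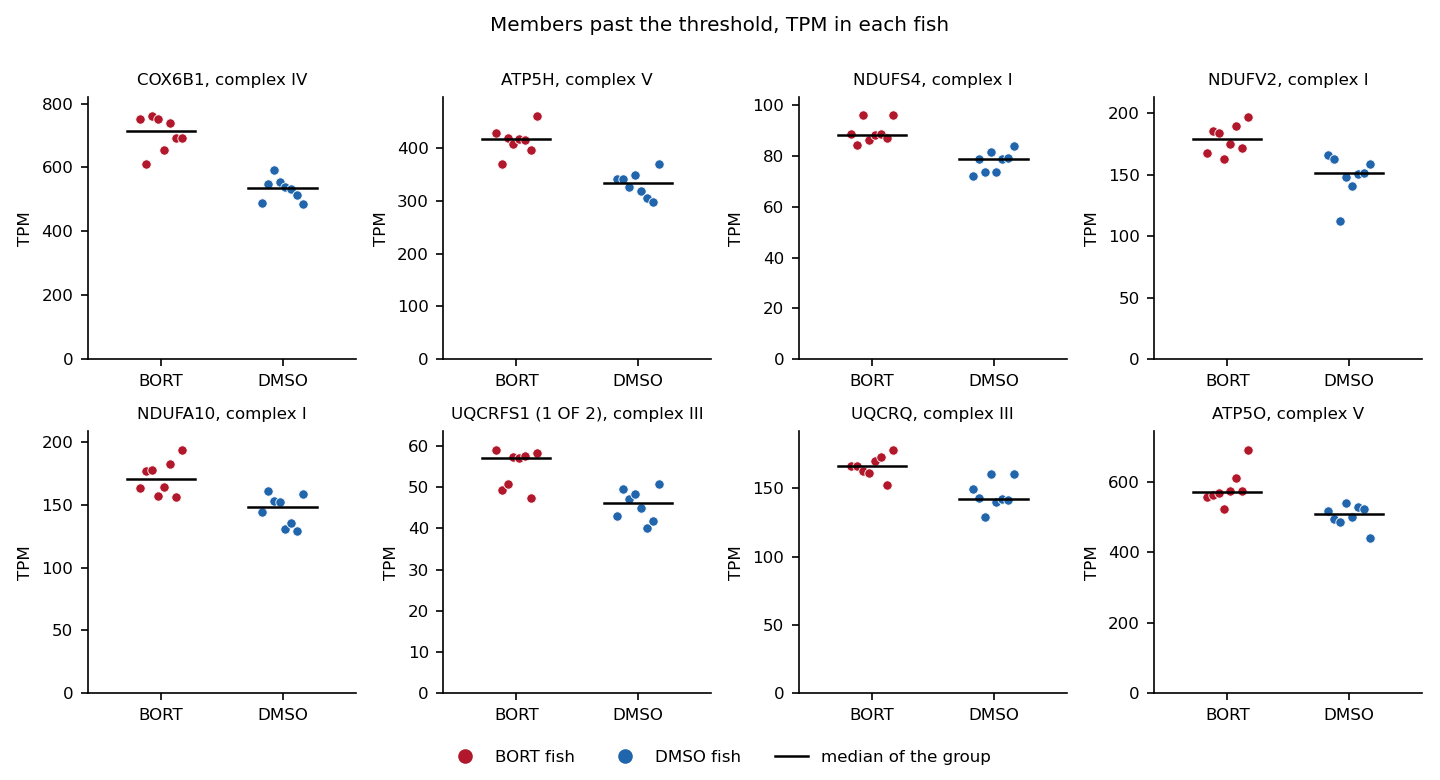
TPM of the 8 members past the threshold in each fish, BORT (red) left of DMSO (blue), with the median of each group as a bar. COX6B1, ATP5H and NDUFS4 show no overlap, and the other 5 overlap in 1 or more fish.

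Besides COX6B1 and ATP5H, each of the 8 called rows was set against the mean of the other rows of its own complex, as a description with no test. NDUFS4, NDUFV2, NDUFA10, UQCRFS1 (1 OF 2), UQCRQ and ATP5O differed by 0.11 to 0.20 on the log2 scale, higher in BORT fish, and their groups overlapped. The calls of these 6 were also the ones that depended on single fish. NDUFV2 was lost on leaving out any 1 of 9 fish, UQCRFS1 (1 OF 2) any 1 of 11, NDUFA10 and ATP5O any 1 of 12 and UQCRQ any 1 of 13, while their adjusted p stayed between 0.0311 and 0.0932 (limma) and their log2 fold changes between 0.17 and 0.29. NDUFS4 was lost only without BORT fish 6. The call of NDUFV2 held without BORT fish 1 or 4 or without DMSO fish 1, 2, 3, 6 or 8, and that of UQCRFS1 (1 OF 2) without BORT fish 2, 3 or 7 or DMSO fish 2 or 8. That of NDUFA10 held without BORT fish 4 or 7 or DMSO fish 2 or 8, that of ATP5O without BORT fish 4 or 8 or DMSO fish 4 or 6, and that of UQCRQ without BORT fish 7 or DMSO fish 4 or 8.

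Summed over its subunit rows, complex I took 7734 ± 361 TPM in BORT fish and 7275 ± 336 TPM in DMSO fish (SD, n = 8 each). Complex IV took 6006 ± 250 TPM in BORT fish and 5546 ± 293 TPM in DMSO fish. Complex II took 344 ± 13.9 TPM in BORT fish and 335 ± 19.6 TPM in DMSO fish, and complex III took 2135 ± 105 TPM in BORT fish and 2045 ± 102 TPM in DMSO fish. Complex V took 6540 ± 303 TPM in BORT fish and 6425 ± 309 TPM in DMSO fish. The groups overlapped in all 5 complexes. DMSO fish 5 and 6, both pituitary-bearing, had the lowest DMSO sums in each of the 5. In complex I they stood at 6866.5 and 6731.4 TPM, and the other DMSO fish at 7276.8 to 7718.8 TPM. In complex V they stood at 6003 and 6045.1 TPM, and the other DMSO fish at 6296.4 to 6947.9 TPM. The BORT fish without pituitary transcripts stood at 6156.1 to 7146.8 TPM in complex V, which spans the whole range of those other DMSO fish. Mean sums without the 4 pituitary-bearing fish are not given. The differences between the group means may therefore rest on these fish in part, and in complex V wholly. All 77 members together made 2.30% of the transcripts in BORT fish and 2.18% in DMSO fish.

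**Figure D3:**
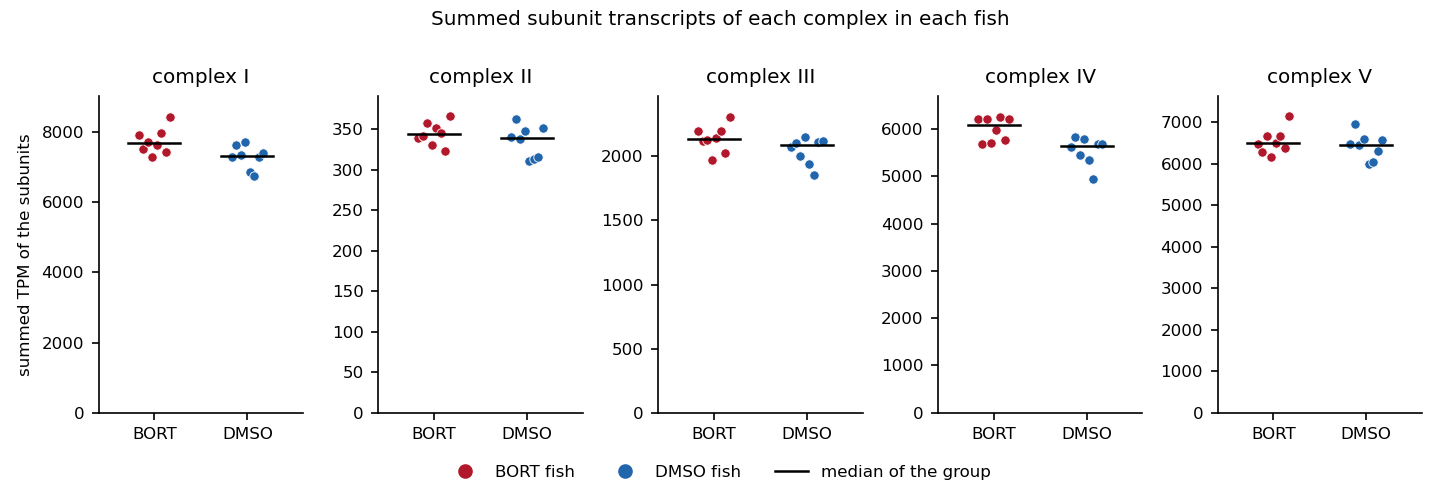
Summed TPM of the subunit rows of each complex in each fish, BORT (red) left of DMSO (blue), with the median of each group as a bar. The 5 complexes overlap between the groups, and 1 BORT fish is the highest of its group in complexes I, II, III and V.

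Some fish were the highest or lowest of their group in many subunits at once. BORT fish 8 was the highest of its group in 39 of the 68 subunit rows and BORT fish 4 the lowest in 28. DMSO fish 2 was the highest of its group in 26 rows. The pituitary-bearing DMSO fish 5 and 6 were the lowest of their group in 14 and 30 rows, and each was the highest in 0. The pituitary-bearing BORT fish 6 and 7 were the lowest of theirs in 0 and 14 rows and the highest in 3 and 1. BORT fish 8 also had the lowest median-of-ratios scaling factor, 0.845, where the other fish had 0.927 to 1.10. The part of these fish in the calls is given by leaving each out. Without BORT fish 8 the median log2 fold change was 0.067 for the members and 0.069 for all genes tested. Of the 77 members 4 were then called higher, beside 4.8% of all genes tested.

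Markers of the cell types of the brain moved with the groups to some extent. Neuron markers summed to 4207 to 4806 TPM in BORT fish and 3045 to 4146 TPM in DMSO fish, without overlap. The SNAP25 and STMN2 rows, the most abundant, made up most of this sum. Of the 13 neuron rows, 10 had a log2 fold change above 0 and 3 below. Only SNAP25 (2 OF 2), a protein of synaptic vesicle fusion, was called, with a log2 fold change of 0.58 ± 0.11 (adjusted p = 0.00798, limma). Oligodendrocyte markers summed to 5920 to 11080 TPM in BORT fish and 7834 to 14200 TPM in DMSO fish, with overlap. Of their 10 rows, 9 had a log2 fold change below 0 and the median was -0.23, but none of the 9 passed. They included MBPA, a myelin protein, at -0.54 ± 0.15 (adjusted p = 0.0533, limma). The 1 row called was MAG, a myelin glycoprotein, which was higher, at 0.76 ± 0.20 (adjusted p = 0.0404, limma). The lists of radial glia and astrocytes, microglia, red blood cells, muscle and photoreceptors overlapped between the groups in their sums, with 1 row called lower in the first list and 1 in the muscle list. Beside these counts, 56.6% of all genes tested had a log2 fold change above 0, 3.61% were called higher and 1.25% lower. No row of the neuron and oligodendrocyte lists was at 0 in any fish. The part of these cell types in the results of the respiratory chain was not tested.

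For 9 pairs of rows the table holds 2 copies or isoforms of 1 subunit, and their ratio within a fish is free of the scaling between fish. These pairs were drawn up after the members' values were seen, and comprise each subunit that is present on 2 rows. By a two-sided exact permutation test over 12870 splits of the fish, with Benjamini-Hochberg adjustment over the 9 pairs, 3 ratios differed.

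The clearest was COX5A, a matrix-side subunit of complex IV. COX5A (2 OF 2) ran at 322, 339.5 and 413 TPM in BORT fish and 287, 312 and 334 TPM in DMSO fish. COX5A (1 OF 2) ran at 189, 212 and 232 TPM in BORT fish and 219, 235 and 252 TPM in DMSO fish. Each copy alone missed the threshold, the 2 OF 2 row at a log2 fold change of 0.15 ± 0.05 (adjusted p = 0.111, limma) and the 1 OF 2 row at -0.14 ± 0.05 (adjusted p = 0.0852, limma). Their ratio was 1.51, 1.62 and 1.89 in BORT fish and 1.19, 1.35 and 1.42 in DMSO fish. All 8 BORT fish lay above all 8 DMSO fish, and the log2 ratio differed by 0.30 (exact permutation p = 0.000155, the smallest these splits can give; adjusted p = 0.0014). Without the 4 pituitary-bearing fish the difference was 0.31, also with no overlap.

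ATP5G3 encodes subunit c, the ring that turns in the membrane as protons pass. Its copy ATP5G3A was the most abundant member of all, at 1522, 1662 and 2003 TPM in BORT fish and 1621, 1820 and 1953 TPM in DMSO fish, while ATP5G3B ran at 294, 301 and 386 TPM in BORT fish and 276, 300.3 and 330.5 TPM in DMSO fish. Neither passed alone (adjusted p = 0.327 and 0.554, limma). The ratio of ATP5G3B to ATP5G3A was 0.17, 0.19 and 0.2 in BORT fish and 0.153, 0.165 and 0.175 in DMSO fish. The log2 ratio differed by 0.17 (exact permutation p = 0.000777, adjusted p = 0.0035), with 7 of 8 BORT fish above the highest DMSO fish. This difference was 0.21 without the 4 pituitary-bearing fish, then with no overlap (exact permutation, adjusted p = 0.00974).

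NDUFA4 carries a complex I name but is now counted as a subunit of complex IV. NDUFA4 (1 OF 2) ran at 239, 269 and 307 TPM in BORT fish and 199.6, 231 and 288 TPM in DMSO fish, and the row named NDUFA4 ran at 268, 292.5 and 303 TPM in BORT fish and 276, 309.5 and 341.5 TPM in DMSO fish. The ratio of the first to the second was 0.8, 0.914 and 1.15 in BORT fish and 0.669, 0.721 and 0.892 in DMSO fish. The log2 ratio differed by 0.31 (exact permutation p = 0.00233, adjusted p = 0.00699), with 5 of 8 BORT fish above the highest DMSO fish. This difference was 0.385 without the 4 pituitary-bearing fish, still with overlap (exact permutation, adjusted p = 0.013). Counted with complex IV, the NDUFA4 rows left complex I with 3 of 31 called and complex IV with 1 of 14.

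The other 6 ratios did not pass. The ratio of UQCRFS1 (1 OF 2) to UQCRFS1 (2 OF 2) differed by 0.12 on the log2 scale (exact permutation p = 0.0336, adjusted p = 0.0755), and that of COX6A2 to COX6A1 by -0.47 (exact permutation p = 0.0493, adjusted p = 0.0887). The ratio of UQCRC2A to UQCRC2B, forms of the second core protein, differed by -0.22 (exact permutation p = 0.0594, adjusted p = 0.089). Those of COX7A3 to COX7A2, NDUFS1 (1 OF 2) to NDUFS1 and COX4I2 to COX4I1 differed by 0.09, 0.18 and -0.10, with adjusted p of 0.255, 0.408 and 0.505 by the same exact permutation test. Reads shared by near-identical copies could be split between rows by the authors' counting, so single values of such copies and their ratios are uncertain.

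**Figure D4:**
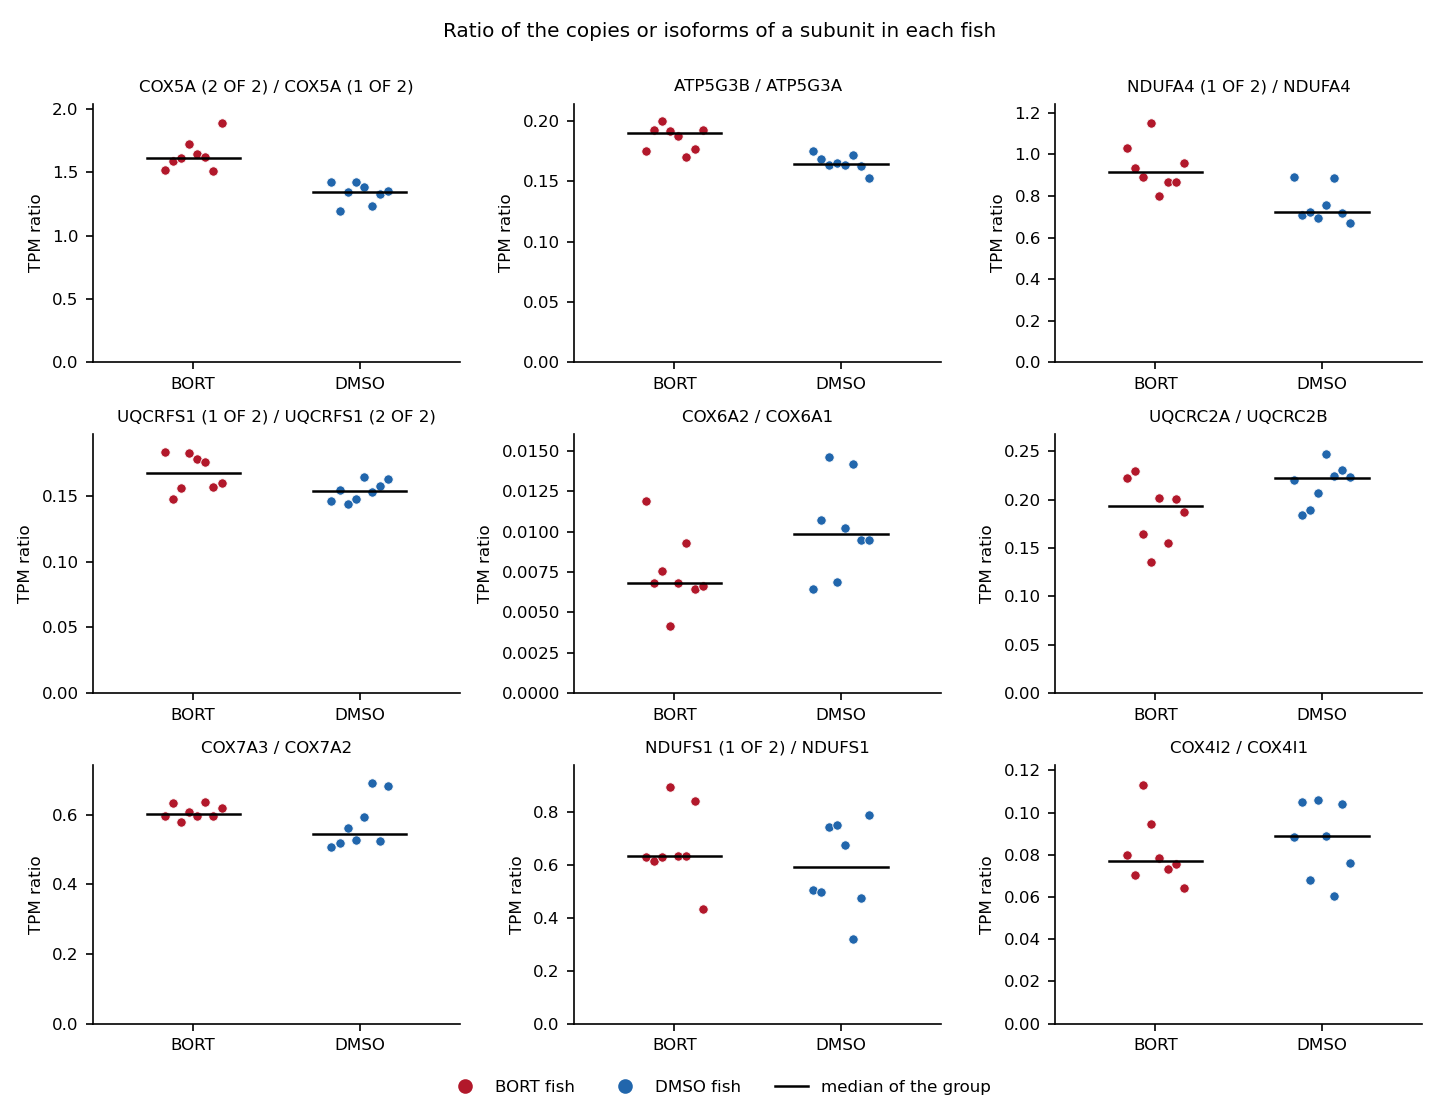
Ratio of the TPM of 2 copies or isoforms of a subunit in each fish, BORT (red) left of DMSO (blue), with the median of each group as a bar, ordered by p. The ratio of COX5A (2 OF 2) to COX5A (1 OF 2) separates the groups without overlap, and the other 8 overlap to differing extents.

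The members differed far more in level than in response. The median TPM of the rows over 16 fish was 531 in complex V, 348 in complex IV, 205.3 in complex I, 174 in complex III and 123 in complex II, and 29.6 in the assembly or other class. Levels ran from 5.45 TPM for COX6A2 to 1745 TPM for ATP5G3A, followed by COX4I1 at 1315 TPM and COX8A at 1124 TPM. In complex I the highest rows were NDUFS5 at 582 TPM, NDUFC2 at 540.0 TPM and NDUFAB1 at 477 TPM, and their log2 fold changes of 0.08, 0.05 and -0.02 did not pass (adjusted p = 0.522, 0.630 and 0.853, limma). The 8 called rows ran from 50.1 TPM for UQCRFS1 (1 OF 2) to 619 TPM for COX6B1 and were neither the highest nor the lowest of their complexes.

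**Figure D5:**
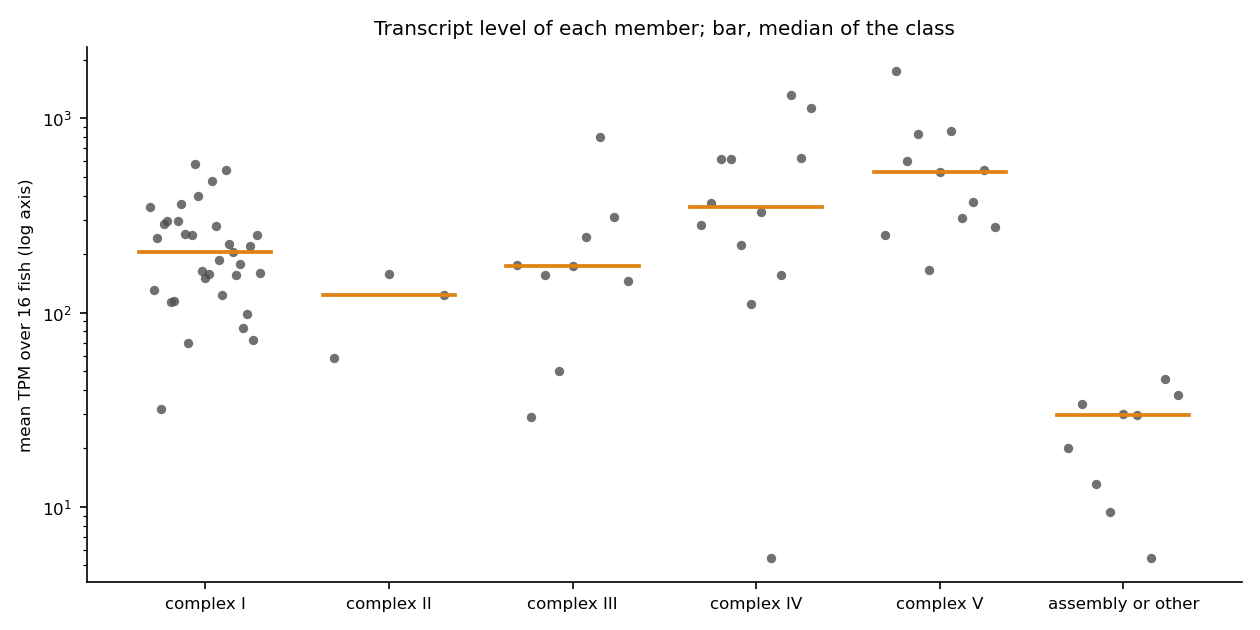
Mean TPM over 16 fish of each of the 77 members on a log axis, by complex, with the median of each class as a bar. The medians run from 123 TPM in complex II to 531 TPM in complex V, and the assembly or other class lies lower, with a median of 29.6 TPM.

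Genes that build and serve the chain were read from the same fit. Of 15 tested assembly factors of complex IV, 4 rose and none fell, with a median log2 fold change of 0.15. Over all genes tested, 3.61% were called higher and 1.25% lower. Calls in these lists are given for the reported fit only, so how far they depend on scaling or on single fish is not shown. SCO1, a copper chaperone, averaged 20.6 TPM in BORT fish and 15.9 TPM in DMSO fish (log2 fold change 0.36 ± 0.08, adjusted p = 0.0204, limma). COA3, which stabilises newly made COX1, had 0.26 ± 0.07 (adjusted p = 0.0404, limma) and CMC2, a twin CX9C protein, had 0.34 ± 0.09 (adjusted p = 0.0438, limma). The fourth was COX20, a chaperone of COX2, whose adjusted p was 0.0448 (limma). None of the 13 assembly factors of complex I passed (median -0.01), nor the 1 of complex II, the 3 of complex III or the 5 of complex V. SDHAF2, which attaches flavin to SDHA, had 0.20 ± 0.06 (adjusted p = 0.0662, limma), and BCS1L, which inserts the Rieske protein, had 0.15 ± 0.06 (adjusted p = 0.144, limma). The ATP synthase inhibitor rows ATPIF1B and ATPIF1A, counted in the complex V list, had 0.24 ± 0.08 and 0.18 ± 0.07 (adjusted p = 0.074 and 0.126, limma). ATPAF1 of the same list went the other way, at -0.23 ± 0.10 (adjusted p = 0.182, limma). Among the members themselves, ATP5S, a coupling factor by name, had 0.21 ± 0.06 (adjusted p = 0.0534, limma), and none of NDUFAF1 to NDUFAF7 passed.

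No row of cytochrome c, of mitochondrial DNA, of the regulators or of the TCA cycle passed. CYCSB, the cytochrome c row tested, stood at a log2 difference of 0.35 ± 0.12 (adjusted p = 0.0952, limma). Of the genes of mitochondrial DNA the table held MT-ND4 and CYTB, with -0.14 ± 0.13 and -0.08 ± 0.11 (adjusted p = 0.553 and 0.706, limma), and their sum overlapped between groups at 2961 to 5858 TPM in BORT fish and 3768 to 5469 TPM in DMSO fish. Of the 18 regulator rows, TFAM, which packages and transcribes mitochondrial DNA, had 0.13 ± 0.05 (adjusted p = 0.133, limma), and NRF1, an activator of respiratory chain genes, had -0.31 ± 0.15 (adjusted p = 0.253, limma). The 20 rows of the TCA cycle, which feeds the chain with NADH and succinate, had a median of 0.04. In glycolysis 3 of 28 rows rose and none fell, beside 3.61% higher and 1.25% lower over all genes tested. They were TPI1B, GPI (1 OF 2) and LDHA, with 0.36 ± 0.06, 0.30 ± 0.07 and 0.28 ± 0.07 on the log2 scale (adjusted p = 0.00284, 0.0168 and 0.0285, limma). These calls too are given for the reported fit only.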

How the data were processed

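Brain RNA of 16 single fish was sequenced, 8 given bortezomib (BORT) and 8 given vehicle (DMSO), grouped by the labels. Reads were made with bcl2fastq 2.20.0.422 and aligned with STAR, per the submitters' processing notes. No counting tool, build or annotation is stated in the sources used here. The TPM values were deposited as 1 table, and each column summed to 1000000, which the values themselves show. Symbols come from that table. The RefSeq gene table held 0 of its identifiers, so no coordinates are given. TPM keeps no depth, so no counting interval is given.

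The 18529 rows that reached 1 TPM in 8 or more fish were tested (8210 were left out) on log2(TPM + 1), using limma 3.58.1 (R 4.3.3) and its intensity trend. Fold changes are on that scale, which understates low genes. Tests were two-sided, with Benjamini-Hochberg adjustment over all genes tested and a threshold of 0.05. The script was tested on simulated data. Errors of fold changes are standard errors, and intervals cover 95%. Tables and plots were made in Python 3.11.15 (pandas 2.3.3, numpy 2.4.6, matplotlib 3.10.9).

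The members, lists and tests were chosen with earlier results of these data known. Members named with values are those past the threshold, the 3 most abundant and the 2 with the largest fold change (mean of at least 10 TPM) of each complex, and a set list of core subunits and isoforms; from the lists, members among the 3 with the smallest p. Any other is said to be named after its values were seen, and copies and isoforms enter through the pairs. A gene that this rule names is not reported here singly, though it stays in the counts and medians. Replicate numbers do not pair the fish. Alternatives were pseudocounts of 0.1 and 5, no filter, a mean of at least 5 TPM, 3 other scalings, a replicate block, the first principal component as a covariate, sample weights, a robust variance, each fish left out, and, added after the data were seen, the 4 pituitary-bearing fish left out (those whose hormone transcripts summed to at least 100 TPM) and a pseudocount of 1 in the ratios of copies.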

Additional observations from a re-analysis of the deposited data

Results flagged for a closer look

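In 8 of the 76 groups of 8 fish checked, 1 fish stood apart from the other fish of its group, by the gap to its neighbour as a share of the range of the group. Chance gives this in about 1 in 20 groups, and the same 16 fish enter for every gene, so the groups are not independent. BORT fish 8 accounted for 5 of the 8. Its ATP5G3A was 2003 TPM, where the other BORT fish had 1522 to 1735 TPM. Its COX5A (2 OF 2) was 413 TPM (others 322 to 361.5 TPM), its NDUFAB1 529 TPM (others 452 to 479 TPM), and its NDUFS5 733.5 TPM (others 539 to 629.7 TPM). Its NDUFS1 (1 OF 2) was low, at 57.8 TPM (others 96.0 to 127 TPM). In BORT fish 4, NDUFA9 was low at 219.7 TPM, where the others had 256 to 282.5 TPM. In DMSO fish 5, NDUFC2 was low at 466 TPM, where the others had 517 to 563 TPM. In DMSO fish 2, UQCRC1 was high at 213 TPM, where the others had 161.5 to 185.5 TPM.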

How the results depend on the processing

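COX6B1 and ATP5H kept their call in all 28 alternatives, with log2 fold changes of 0.37 to 0.44 and 0.26 to 0.35. Their highest adjusted p was 0.0215 and 0.0498 (limma), both under upper-quartile scaling. The number of members called higher was 2 under median-of-ratios and upper-quartile scaling, 3 under quantile normalization, 2 with the replicate block, 15 with the first principal component, 12 with sample weights, 2 without the 4 pituitary-bearing fish, and 2 to 8 with 1 fish left out. Of all genes tested, 2.9% were called higher under median-of-ratios scaling, 2.71% under upper-quartile scaling and 2.96% under quantile normalization. The share was 2.02% with the replicate block, 10.3% with the principal component and 7.92% with weights. It was 1.4% without the 4 pituitary-bearing fish and 1.99% to 4.8% with 1 fish left out. Of the 77 members, those called lower were 2 under quantile normalization and 1 each with the principal component and with weights. Of the 18529 genes tested, 563 were called lower under quantile normalization, 519 with the principal component and 424 with weights. Over all genes, 491 were called with the replicate block, 2434 with the principal component, 1892 with weights, 325 without the 4 fish, and 485 to 1108 with 1 fish left out. Replicate numbers are only names: same-number correlations were -0.24 to 0.415, and 1 of 16 fish correlated best with its own number.

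In complex I, 0 rows were called under median-of-ratios and upper-quartile scaling, with the block and without the 4 fish. The 1 row called under quantile normalization was NDUFA4, which was lower. The count was 8 with the principal component, 5 with weights and 0 to 4 without 1 fish. In complex III, 0 were called under the 3 scalings, with the block and without the 4 fish, and 0 to 2 without 1 fish. In complex IV, 2 were called among genes averaging at least 5 TPM, and 3 under quantile normalization, with the principal component and with weights. In each of the last 3 settings, 1 of the 3 rows was COX5A (1 OF 2), which was called lower. In complex V, 1 was called with no filter, under the 3 scalings, with the block and without the 4 fish, and 1 to 2 without 1 fish. Quantile normalization gave median log2 fold changes of 0.0130 in complex I, -0.0119 in complex III and -0.0199 in complex V. The cause of these changes was not tested.

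Of the 77 members, 4 turned sign under median-of-ratios scaling, 9 under upper-quartile scaling, 20 under quantile normalization, 3 with weights, 9 without the 4 fish and 1 to 4 with 1 fish left out. None of these passed in the reported fit or under the setting that turned it, and their reported log2 fold changes were at most 0.12 in size. ATP5J and ATP5G3B, given with values but outside the naming rule, turned under quantile normalization. Among the members named with values by that rule, the turned ones were as follows. Under median-of-ratios scaling SDHC was -0.00050 and UQCRB -0.0213. Under upper-quartile scaling SDHA was -0.0082, SDHC -0.0143 and UQCRB -0.0353. Under quantile normalization COX4I2 was -0.0228, CYC1 -0.0119, NDUFC2 -0.0246, NDUFV1 -0.0208, SDHA -0.0779, SDHC -0.0371, SDHD -0.0446 and UQCRB -0.0484. With weights COX4I2 was -0.0071 and UQCRB -0.0074. Without the 4 fish COX4I2 was -0.0016, NDUFS1 (1 OF 2) -0.0536, SDHD -0.0044 and UQCRB -0.0123. With 1 fish left out UQCRB was -0.019 to 0.037, COX4I2 -0.027 to 0.12, NDUFS1 (1 OF 2) -0.028 to 0.23, UQCRC1 -0.031 to 0.026 and NDUFAB1 -0.049 to 0.004. None of the 162 recomputed ratios of copies turned its sign and in 4 the adjusted p came under the threshold, while none lost it. TPM carries no depth, so the precision of a value rests on the spread between fish alone.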
